A study of Rattus norvegicus with 18 samples.

Results

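The comparison described here set rat livers taken 4 h after birth against livers taken 30 min after birth. Arrays were chosen by their titles, which gave 3 arrays at 4 h and 3 at 30 min, 6 of the 18 arrays in the study. The study followed the liver of Sprague Dawley rats across birth at 6 ages, which were embryonic day 21 (E21, term), 30 min, 4 h, 12 h, 1 day and 7 days. Total liver RNA was hybridised to Affymetrix Rat Transcriptome 1.0 arrays, with 3 dams behind each age. Fetuses at E21 were taken by caesarean section before a first breath, and the births of the postnatal pups were watched so that their age was timed directly. No drug, special diet or genetic change is named for either age, which differ in the labels by time after birth, while the number of pups behind an array, their sex and whether they had fed were not given. The p-values rest on the spread between arrays of 1 age, each from a different dam, pooled over all 18 arrays and 6 ages (12 residual degrees of freedom).

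Birth cuts the fetus off from placental glucose and leaves the liver to supply fuel until milk arrives. In newborn mammals glucagon and catecholamines rise and insulin falls, and cyclic AMP in the hepatocyte activates protein kinase A and the transcription factor CREB. CREB and its coactivators then switch on Ppargc1a, which encodes PGC-1alpha, and the genes of gluconeogenesis. In the same hours autophagy releases amino acids, the adrenal gland releases glucocorticoid, oxygen tension rises, and liver glycogen starts to fall.

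Values are log2 of the deposited intensities, so a difference of 1 is a doubling, and 1 probe set was kept for each gene symbol. Levels of different genes are not compared, since each probe set has its own brightness. Array medians lay between 6.28 and 6.39, and 95% of the readings from 24 genes taken to be silent in liver lay at or below 6.13, which is used as the floor. The liver label held, since Alb and Afp, the albumins of adult and fetal serum, lay between 19.92 and 19.93 on all 6 arrays, at the top of the scale, where a change could not be read. Ttr, the carrier of thyroxine, lay between 19.25 and 19.55. Krt7 of bile ducts (5.08 to 5.49) and Prss1 of the pancreas (4.04 to 4.44) lay below the floor.

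The replicate 3 arrays had the lowest weights of the 6. The weights that limma estimated for the arrays were 0.584 for 4 h replicate 3 and 0.655 for 30 min replicate 3, against 0.86 to 2.49 for the other 4. Across genes, 4 h replicate 3 correlated at 0.991 with replicate 1 and at 0.991 with replicate 2 of 30 min, and at 0.989 and 0.987 with the other 4 h arrays. By the same measure 30 min replicate 3 did not stand apart, at 0.989 and 0.991 with its own group and 0.988 to 0.989 with the 4 h arrays. Sik1, a kinase gene induced by cyclic AMP, shows the split, with 16.01, 15.88 and 10.91 at 4 h and 9.79, 9.71 and 12.94 at 30 min. For this gene 4 h replicate 3 lay near the first 2 arrays of 30 min, and 30 min replicate 3 lay above it. Results are given with all arrays, and for some genes and lists also with these 2 arrays and E21 replicate 1 left out. In that limma fit Gadd45b, Nr4a2, Slc38a2 and Chac1, described below, passed as higher (adjusted p of 2.98e-05 to 0.00426). Jun changed by −0.31 there (adjusted p = 0.968), and Creb1, Pfkfb3, Rtp3 and Arid1a did not pass. The arrays were left out for their values, so that fit is a description.

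Of 18926 genes tested with limma, 186 passed an adjusted p of 0.05, which is 0.983% of all. At 4 h 98 genes (0.518%) were higher than at 30 min and 88 (0.465%) were lower. The higher genes moved further, with a median change of 0.93 and 7 changes above 2, while the lower genes had a median size of 0.762 and none beyond 2. For scale, the same fit called 1684 genes (8.9%) at 12 h against 4 h, a comparison that shares the 4 h arrays. At an unadjusted p under 0.05 the count at 4 h against 30 min was 2146 genes (11.3%). All 186 genes kept their direction when any 1 of the 6 arrays was left out, but only 33 of them, 15 higher and 18 lower, stayed past the threshold in each of those 6 fits. With only the 6 arrays of the 2 ages fitted, and so without the spread pooled over the other ages, 1 gene passed (Bcar3), and with the replicate number as a block in them 0 passed in limma, where 1853 had an unadjusted p under 0.05.

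**Figure D1:**
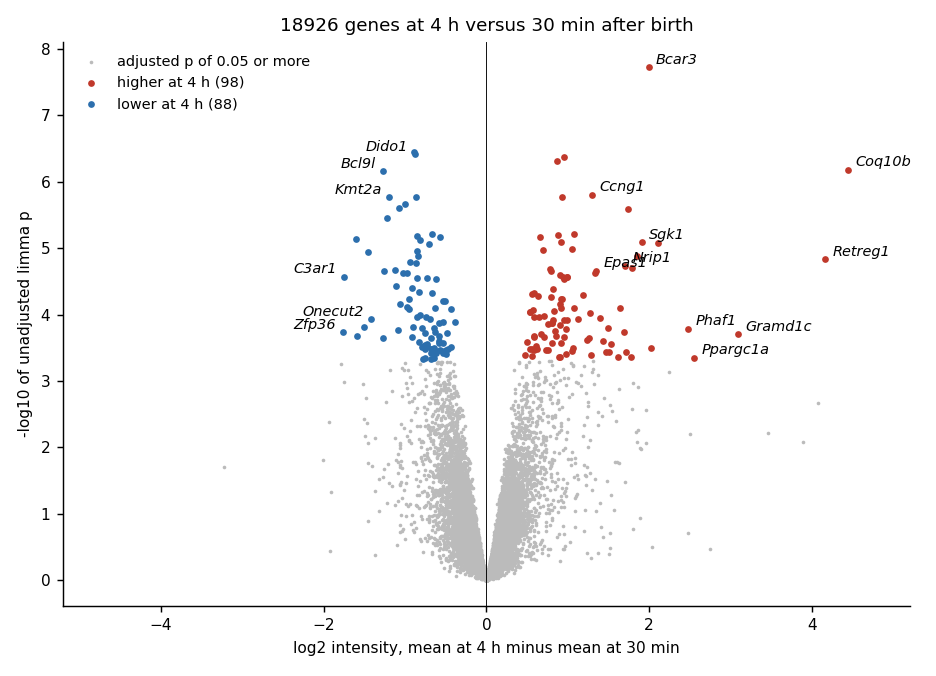
Change of each gene (horizontal axis, log2 intensity at 4 h minus 30 min) against the strength of the evidence (vertical axis, −log10 of the unadjusted limma p). The 98 red genes were higher at 4 h and the 88 blue genes lower; Coq10b and Retreg1 lie farthest to the right, and no called lower gene reaches −2.

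The largest rise was that of Coq10b, which encodes a mitochondrial protein that binds coenzyme Q and is needed for its work in the respiratory chain. Its level was 14.86, 14.28 and 12.17 at 4 h, against 9.98, 8.27 and 9.74 at 30 min. The groups did not overlap, and the mean was 13.77 ± 1.42 at 4 h and 9.33 ± 0.92 at 30 min (SD, n = 3 each). The change of 4.44 ± 0.54 (SE) is 21.7-fold on the linear scale and had an adjusted p of 0.00187. It lay between 3.89 and 5.24 when single arrays were left out and passed each time. Ppargc1a, the coactivator of mitochondrial and gluconeogenic genes, had 13.31, 13.14 and 11.26 at 4 h and 10.10, 9.01 and 10.96 at 30 min. Its change of 2.55 ± 0.57 passed narrowly (adjusted p = 0.0465), and replicate 3 at 4 h stood only just above replicate 3 at 30 min. It missed the threshold without 4 h replicate 1 (adjusted p = 0.201), 4 h replicate 2 (0.19), 30 min replicate 1 (0.119) or 30 min replicate 2 (0.219). Of 22 measured genes of mitochondrial biogenesis and coenzyme Q, only Coq10b and Ppargc1a passed, where 0.518% of all genes rose. The list median was −0.12, with 9 changes above 0 and 13 below.

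Retreg1 had the next largest rise. It encodes an endoplasmic reticulum receptor that hands that membrane to autophagosomes, and it read 12.70, 13.89 and 10.51 at 4 h, against 8.15, 7.36 and 9.11 at 30 min. Every 4 h array exceeded every 30 min array, and the change was 4.16 ± 0.66, or 17.9-fold (adjusted p = 0.00815). Without 30 min replicate 2 the change was 3.74 with an adjusted p of 0.0554. Phaf1, whose product associates with the forming autophagosome, had 13.83, 13.81 and 11.38 at 4 h and 10.29, 10.28 and 11.00 at 30 min (2.48 ± 0.50, adjusted p = 0.0284). Its replicate 3 arrays differed least, and it missed the threshold when replicate 1 or 2 of either age was left out, at adjusted p of 0.102 to 0.135. Of 26 measured genes of autophagy and ER-phagy, Retreg1 was the 1 that passed, and the median change of the list was −0.03, against 0.00 over all genes. Map1lc3b, the autophagosome marker LC3B, read 9.98, 10.13 and 9.35 at 4 h and 8.70, 8.38 and 8.90 at 30 min, without overlap but with an adjusted p of 0.0776.

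Among genes tied to cyclic AMP or to autophagy, Coq10b, Retreg1 and Ppargc1a had the largest called rises. Their promoters are printed to show the sequence around the gene starts. Each holds 250 bases before and 50 after the start of the gene in RefSeq's rat assembly GRCr8, on the plus strand, and capitals mark TGACG or its reverse complement CGTCA, the core of the CREB binding element, and the full palindrome TGACGTCA where it occurs.
Coq10b, chr9:64047918-64048217: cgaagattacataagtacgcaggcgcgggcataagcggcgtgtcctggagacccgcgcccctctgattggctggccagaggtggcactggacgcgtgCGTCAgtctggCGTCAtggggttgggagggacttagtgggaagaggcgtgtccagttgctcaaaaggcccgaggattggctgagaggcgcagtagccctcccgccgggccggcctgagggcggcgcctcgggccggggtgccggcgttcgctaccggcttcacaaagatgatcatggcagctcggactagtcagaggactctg
Retreg1, chr2:78065874-78066173: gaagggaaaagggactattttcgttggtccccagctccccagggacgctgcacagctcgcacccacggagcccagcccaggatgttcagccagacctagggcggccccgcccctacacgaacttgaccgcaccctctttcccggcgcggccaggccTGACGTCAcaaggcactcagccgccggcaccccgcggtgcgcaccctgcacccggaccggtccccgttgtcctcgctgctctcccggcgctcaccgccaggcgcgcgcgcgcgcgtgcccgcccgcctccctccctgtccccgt
Ppargc1a, chr14:63634058-63634357: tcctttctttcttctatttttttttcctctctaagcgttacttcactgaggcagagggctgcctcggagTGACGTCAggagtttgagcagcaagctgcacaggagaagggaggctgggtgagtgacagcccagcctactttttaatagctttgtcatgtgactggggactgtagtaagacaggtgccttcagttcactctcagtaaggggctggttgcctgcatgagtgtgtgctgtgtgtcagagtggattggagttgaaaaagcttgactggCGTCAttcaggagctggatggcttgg
Counted on both strands, the short core occurs 2 times in the Coq10b window, 2 times in that of Retreg1 and 3 times in that of Ppargc1a, where each palindrome holds it on both strands. Among the higher genes with a promoter in the table, TGACG lies in 32 of 83 windows (38.6%), against 19 of 76 (25%) for the lower genes and 25.5% of 15386 windows of all tested genes. The palindrome TGACGTCA, which contains TGACG, lies in 4 of the 83 (Lrrc8a, Ppargc1a, Ppp2ca and Retreg1), in 0 of the 76, and in 2.46% of all windows. CACGTG, the core bound by clock and Myc factors, lies in 9.64% of higher, 9.21% of lower and 7.81% of all windows. A match here is a description of letters and not a measured binding site.

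Gramd1c had the largest called rise outside those genes. It encodes a protein that moves cholesterol between membranes, and it read 12.86, 13.21 and 10.21 at 4 h and 8.76, 9.58 and 8.66 at 30 min (3.10 ± 0.63, adjusted p = 0.0314). The groups were separate, but the call was kept only without 4 h replicate 3 and lost without any 1 of the other 5 arrays, at adjusted p of 0.0785 to 0.145. Stard4, a cytosolic sterol carrier, had 11.46, 11.80 and 10.67 at 4 h and 9.62, 9.67 and 9.72 at 30 min (1.64 ± 0.31, adjusted p = 0.0197). It was the 1 gene that passed among 20 of cholesterol synthesis and its control, whose median change was −0.12. Eml4, a microtubule-binding protein, rose by 1.74 ± 0.24 (adjusted p = 0.00349). Lpin2, a phosphatidic acid phosphatase of triglyceride synthesis, had 12.50, 12.02 and 11.74 at 4 h and 11.05, 10.90 and 11.13 at 30 min (1.06 ± 0.23, adjusted p = 0.0396). It alone passed among 23 genes of fatty acid and triglyceride synthesis, whose median was −0.36 with 6 members above 0. The call of Stard4 was lost without replicate 1 or 2 of either age (adjusted p of 0.0652 to 0.0986), and that of Lpin2 without any array but 4 h replicate 3 (0.0676 to 0.178).

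Bcar3 gave the lowest p-value of all genes. It encodes an adaptor that couples receptor kinases to the docking protein p130Cas, and it had 8.58, 8.87 and 8.75 at 4 h, against 6.70, 6.72 and 6.80 at 30 min. The gap was many times the spread within either age (2.00 ± 0.19, adjusted p = 0.000358). At E21 the level was 6.83 ± 0.23, and at 12 h it was 6.77 ± 0.22 (SD, n = 3 each). Sgk1, a kinase gene induced by glucocorticoid, read 10.89, 9.99 and 9.62 at 4 h and 7.90, 8.21 and 8.65 at 30 min (1.91 ± 0.29, adjusted p = 0.00606). Nrip1, the nuclear receptor corepressor RIP140, had 11.55, 11.48 and 11.40 at 4 h and 9.45, 9.67 and 10.20 at 30 min (1.71 ± 0.28, adjusted p = 0.00938). Its 4 h arrays agreed within 0.15 of each other, replicate 3 included. Rell1, a relative of the TNF receptor RELT, rose by 2.10 ± 0.32 and was highest on 4 h replicate 3 (11.07, 11.62 and 12.38 at 4 h, 9.33, 9.04 and 10.38 at 30 min). Garem, an adaptor of EGF receptor signalling, rose by 1.85 ± 0.29, Hivep1, a zinc finger transcription factor, by 1.79 ± 0.29, and Stk10, a kinase of ezrin-type proteins, by 1.70 ± 0.34. Garem, Nrip1 and Hivep1 missed the threshold without 30 min replicate 2 (adjusted p of 0.0515, 0.0554 and 0.0586), Hivep1 also without 4 h replicate 1 (0.0532), and Stk10 without replicate 1 or 2 of either age (0.0548 to 0.144). Bcar3, Sgk1 and Rell1 passed without any 1 array.

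**Figure D2:**
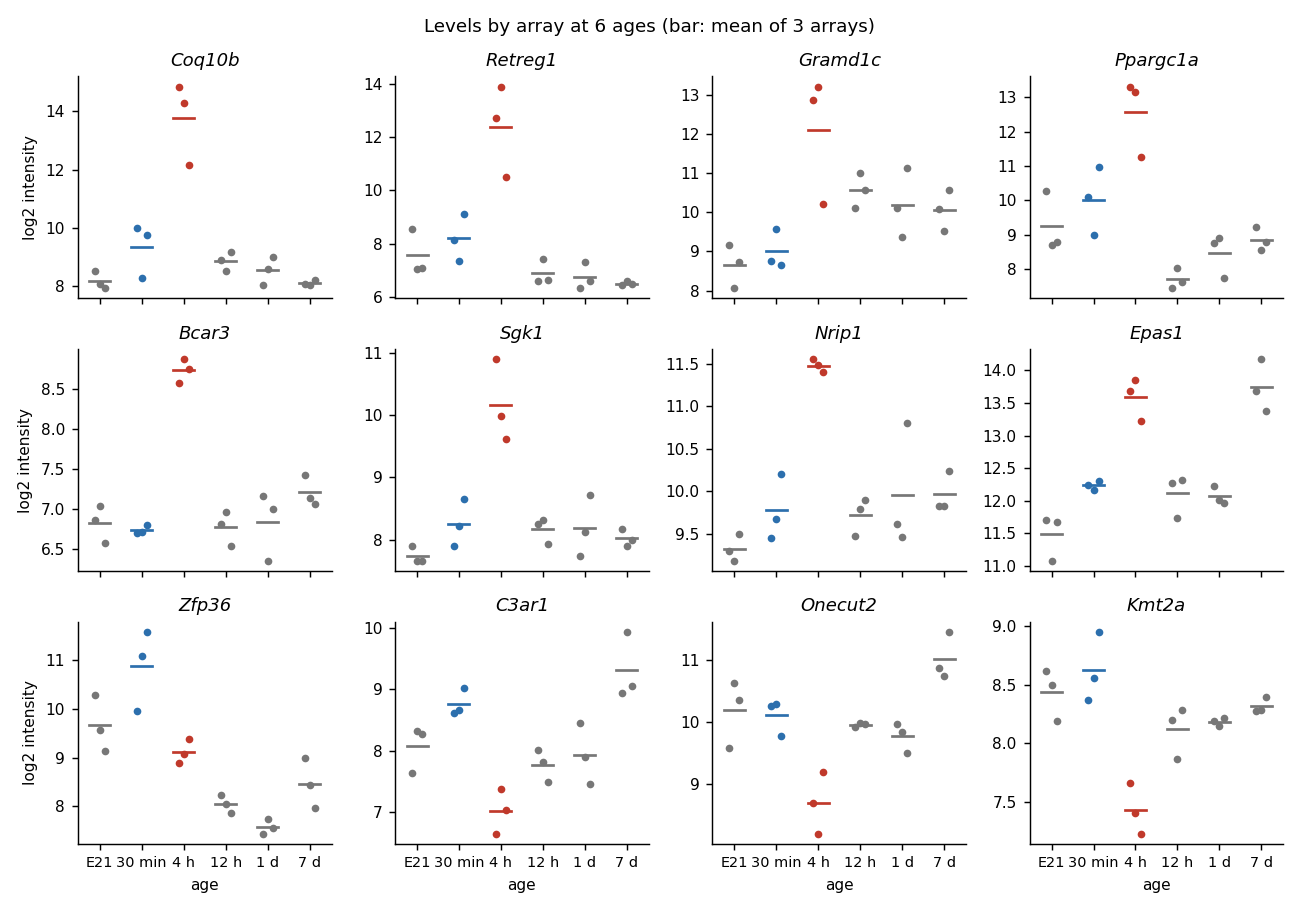
Log2 intensity of 12 genes on each of the 18 arrays by age, with a bar at the mean of 3 arrays, 4 h in red and 30 min in blue. Coq10b, Retreg1, Ppargc1a, Bcar3 and Sgk1 are high at 4 h and near their E21 level at 12 h, Epas1 is high again at 7 days, and Kmt2a and C3ar1 are lowest at 4 h.

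Among the 27 measured genes of the cyclic AMP and CREB list, Coq10b and Ppargc1a rose and Creb1 fell. Of all genes 0.518% rose and 0.465% fell. The list median was 0.29, and 8 members were higher and 3 lower at an unadjusted p under 0.05 in limma. At that threshold 5.13% of all genes were higher and 6.21% lower. Creb1, the factor itself, had 7.75, 7.62 and 7.50 at 4 h and 8.15, 8.48 and 8.46 at 30 min (−0.74 ± 0.14, adjusted p = 0.023). Its call was lost without 4 h replicate 1 or 2 or 30 min replicate 2 or 3, at adjusted p of 0.0534 to 0.125. Without replicate 3 of both ages and E21 replicate 1 it was lost too (−0.63, adjusted p = 0.112). Among the orphan receptors that are early targets of cyclic AMP, Nr4a1 and Nr4a2 did not pass (adjusted p of 0.11 and 0.17), and with arrays below the floor set to it their changes were at least 1.15 and 1.75. Nr4a3 had its mean below the floor at both ages, so no change is given. Nr4a2 read 8.47, 9.71 and 6.22 at 4 h and 5.77, 6.21 and 6.82 at 30 min, so that replicate 3 lay in the opposite order to the rest. Sik1 had a change of 3.45 ± 1.08 with an adjusted p of 0.178, with replicate 3 again reversed. With replicate 3 of both ages and E21 replicate 1 out, 9 of the 27 genes rose, where 1.48% of all genes rose and 0.867% fell in that fit, and Sik1 gave an adjusted p of 3.44e-07. Those arrays were chosen from their values, so that fit is a description of the remaining pairs and not independent evidence.

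Of 15 measured genes of gluconeogenesis and glucose export, Ppargc1a was the 1 that passed, with a list median of 0.30. Pck1, the cytosolic enzyme that commits carbon to glucose, read 18.51, 18.39 and 16.71 at 4 h and 15.41, 15.75 and 18.15 at 30 min. The groups overlapped because 30 min replicate 3 was nearly as high as the first 2 arrays of 4 h (1.43 ± 1.13, adjusted p = 0.73), and without the 3 arrays the change was 2.87 with an adjusted p of 0.0121. G6pc1, which releases free glucose, had 17.06, 17.16 and 14.68 at 4 h and 14.07, 15.60 and 16.88 at 30 min (adjusted p = 0.811). Tat, the enzyme that breaks down tyrosine, had 19.10, 19.49 and 18.23 at 4 h and 16.72, 16.90 and 18.64 at 30 min (adjusted p = 0.806). In glycogen metabolism 0 of 13 genes passed limma's test, and 3 were lower at an unadjusted p under 0.05, as were 6.21% of all genes. Ppp1r3b, which holds the phosphatase that activates glycogen synthase, had 6.01, 5.84 and 6.94 at 4 h and 8.99, 8.98 and 6.61 at 30 min (adjusted p = 0.146), again with replicate 3 reversed, and with the first 2 arrays of 4 h, which lay below the floor, set to it the change was −1.80. Gys2, liver glycogen synthase, changed by 0.26, which was not past the threshold.

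Amino acid supply showed the same division. Slc38a2, a sodium-coupled importer of small neutral amino acids, read 17.14, 17.23 and 14.31 at 4 h and 13.83, 13.76 and 15.20 at 30 min (1.97 ± 0.65, adjusted p = 0.211). Chac1, a glutathione-degrading enzyme induced in amino acid stress, read 10.89, 11.60 and 5.79 at 4 h and 4.42, 4.91 and 7.30 at 30 min (adjusted p = 0.206). The first 2 arrays of 30 min lay below the floor, and with these set to it the change was at least 2.91. Without 4 h replicate 3 the change of Slc38a2 was 2.92 (adjusted p = 0.00635), and Chac1 also passed (adjusted p = 0.00836). That array was singled out from its values, so this fit is a description. With any other 1 of the 6 arrays out neither gene passed. The adjusted p was then 0.15 to 0.561 for Slc38a2 and 0.154 to 0.565 for Chac1. Of 15 amino acid transporters 0 passed with all arrays and 6 were higher at an unadjusted p under 0.05 in limma, as were 5.13% of all genes, while 12 changes were above 0 and the median was 0.46. With the 3 arrays out, 4 of the 15 rose, against 1.48% of all genes.

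**Figure D3:**
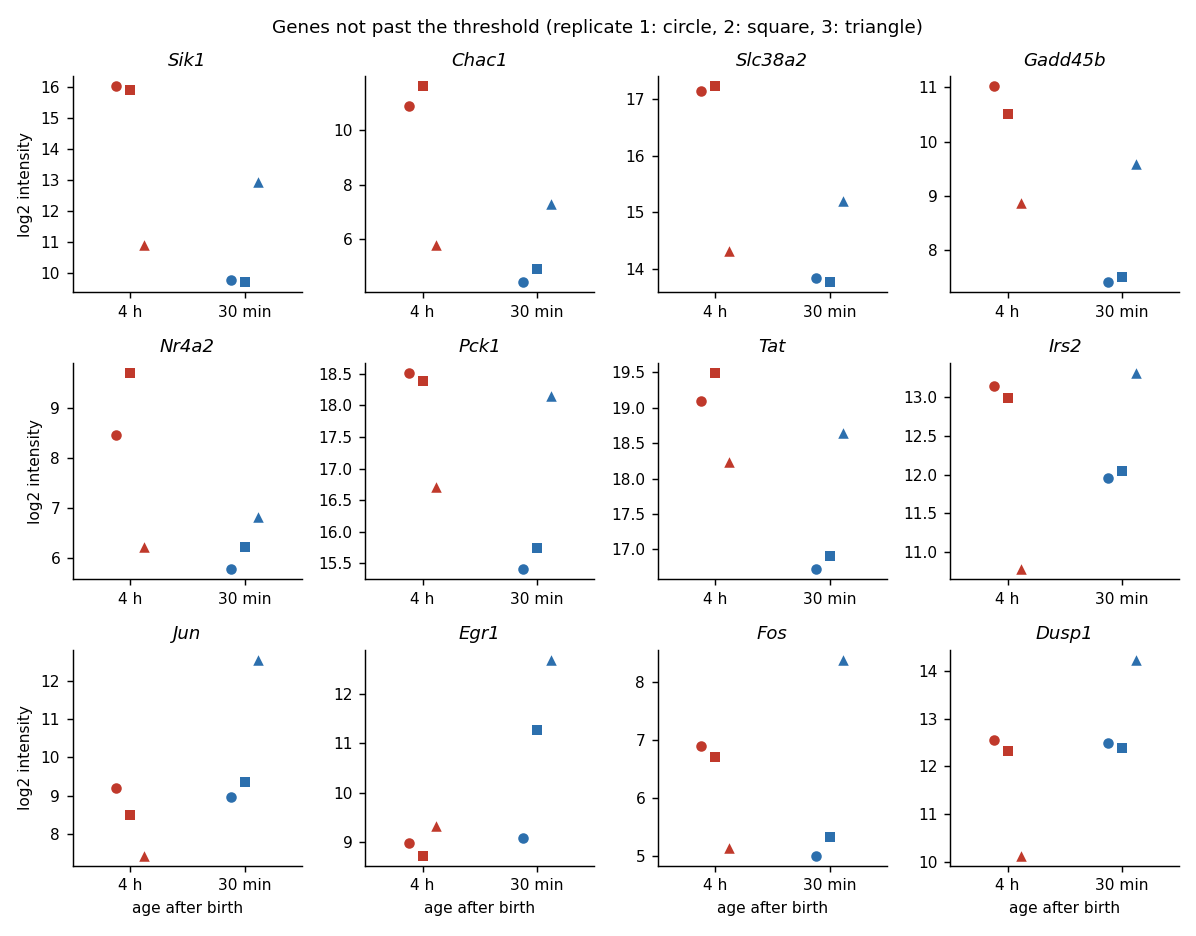
Log2 intensity of 12 genes that did not pass, on the 3 arrays at 4 h (red, left) and the 3 at 30 min (blue, right), with replicate 1 as a circle, 2 as a square and 3 as a triangle. For Sik1, Chac1, Slc38a2, Gadd45b and Nr4a2 the red triangle lies below the blue one although the other red points lie above the other blue points.

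The immediate early genes, which answer stress and growth signals within minutes, split. Of 34 measured, Sgk1 and Cdkn1a rose and Zfp36 fell, where 0.518% of all genes rose and 0.465% fell. The median change was 0.04. At an unadjusted p under 0.05 in limma 12 members were higher and 10 lower, against 5.13% and 6.21% of all genes. Zfp36, which encodes tristetraprolin and speeds the decay of AU-rich messages, had 8.90, 9.08 and 9.38 at 4 h, against 9.97, 11.10 and 11.58 at 30 min (−1.76 ± 0.36, adjusted p = 0.0303). It was the largest called fall of all genes, and its 12 h mean was lower again at 8.05 ± 0.18. Without 30 min replicate 3 it was −1.41 with an adjusted p of 0.0912, and it also missed the threshold without 4 h replicate 1 or 2 or 30 min replicate 2 (0.107 to 0.144). Jun read 9.19, 8.51 and 7.43 at 4 h and 8.97, 9.37 and 12.54 at 30 min, and Egr1 read 8.98, 8.71 and 9.33 at 4 h and 9.08, 11.28 and 12.70 at 30 min. Their high 30 min values came from replicate 3, and for Egr1 also replicate 2, and neither passed (adjusted p of 0.429 and 0.278). Fos had a change of 0.01 and Dusp1 of −1.36 (adjusted p = 0.422). Gadd45b, a stress-induced regulator of MAP kinases, read 11.02, 10.50 and 8.86 at 4 h and 7.40, 7.50 and 9.58 at 30 min (adjusted p = 0.117). With the 3 arrays out, 11 of the 34 rose and 2 fell, against 1.48% and 0.867% of all genes.

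Several hormone and stress lists had a pair of called members, but the same genes recur in them. Sgk1 and Cdkn1a are also the called rises of the immediate early list, and Cdkn1a stands among the p53 targets too. Of all genes 0.518% rose. Among 18 glucocorticoid-induced genes Sgk1 and Cdkn1a rose, 15 changes were above 0 and the median was 0.25. The receptor itself, Nr3c1, read 13.99, 13.99 and 12.76 at 4 h and 12.31, 12.20 and 12.72 at 30 min (1.17 ± 0.28, adjusted p = 0.0655). Among 14 p53 targets Ccng1 and Cdkn1a rose. Ccng1, cyclin G1, had 10.75, 10.92 and 10.17 at 4 h and 9.38, 9.23 and 9.35 at 30 min (1.29 ± 0.17, adjusted p = 0.00294), with no overlap and a call that survived each left-out array. Cdkn1a, the cell cycle inhibitor p21, had 10.73, 11.12 and 11.16 at 4 h and 10.06, 8.97 and 10.12 at 30 min (1.28 ± 0.28, adjusted p = 0.0439), a call kept only without 30 min replicate 3 and otherwise lost, at adjusted p of 0.0597 to 0.183. Tp53inp1, another p53 target, had a change of 2.24 with an adjusted p of 0.0614.

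Among 22 genes of the hypoxia response, Epas1 and Pfkfb3 rose, where 0.518% of all genes did, and the list median was −0.06. Epas1, which encodes HIF-2alpha, had 13.68, 13.85 and 13.23 at 4 h and 12.24, 12.17 and 12.31 at 30 min (1.35 ± 0.22, adjusted p = 0.00972). Its E21 level was 11.49 ± 0.36, its 12 h level 12.12 ± 0.32 and its 7 day level 13.74 ± 0.40. Its adjusted p was 0.0502 to 0.0574 when 4 h replicate 1 or 2 or 30 min replicate 2 was left out. Pfkfb3, which makes the activator of glycolytic phosphofructokinase, had 8.32, 7.69 and 8.10 at 4 h and 7.38, 6.80 and 6.97 at 30 min (0.99 ± 0.17, adjusted p = 0.01), lost without 4 h replicate 1 (0.0563), 30 min replicate 2 (0.0711) or the 3 arrays together (0.0549). Hif1a, the other oxygen-sensed subunit, changed by −0.07. Among 17 clock genes Nr1d2 and Clock rose, against the same 0.518% of all genes, and the median was 0.10. Nr1d2, the repressor REV-ERB beta, had 10.68, 10.47 and 10.65 at 4 h and 8.71, 8.78 and 9.70 at 30 min (1.54 ± 0.33, adjusted p = 0.0373). Clock had 10.58, 10.49 and 10.26 at 4 h and 9.91, 9.83 and 9.90 at 30 min (0.56 ± 0.12, adjusted p = 0.0444). Both calls were lost without any 1 of 5 arrays, at adjusted p of 0.0521 to 0.191. Nr1d2 kept it without 30 min replicate 3 and Clock without 4 h replicate 3.

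In all, 43 lists of pathways held 794 measured genes, of which 13 rose (1.64%, against 0.518% of all genes) and 3 fell (0.378%, against 0.465%). The lists were chosen with earlier results of these data known, so these shares are a description and not evidence of enrichment. Of the 43 lists, 29 had no called member. Lists with none included fatty acid oxidation and ketogenesis (22 genes, median −0.14, with 1 higher and 1 lower at an unadjusted p under 0.05 in limma), the urea cycle, amino acid catabolism, the acute phase, plasma proteins, DNA replication, mitosis, the proteasome and the respiratory chain. Cpt1a, the gate of fatty acid entry into mitochondria, read 13.68, 14.04 and 13.83 at 4 h and 12.34, 12.21 and 13.36 at 30 min, with no overlap and an adjusted p of 0.342. Plin2, a lipid droplet coat, had a change of 0.49, not past the threshold. In limma 0 of 34 ribosome biogenesis genes passed and 6 were higher at an unadjusted p under 0.05, against 5.13% of all genes. Their median was 0.27 with 29 changes above 0, and 7 genes (20.6%) had all 4 h arrays above all 30 min arrays, where 8.64% of all genes did. Of 17 extracellular matrix genes 0 passed in limma and 6 were higher at an unadjusted p under 0.05, against 5.13% of all genes. Among their changes 16 were above 0, and 9 genes (52.9%) had all 4 h arrays above all 30 min arrays, against 8.64% of all genes. The summed level of 15 stellate and mesenchymal markers was 129.4 to 138.2 at 4 h and 127.7 to 132 at 30 min, with 11 changes above 0 and a median of 0.13, and its part in the matrix genes was not tested. Col3a1, a fibrillar collagen, read 10.70, 11.33 and 11.50 at 4 h and 10.42, 10.73 and 10.25 at 30 min (0.71 ± 0.26, adjusted p = 0.271).

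**Figure D4:**
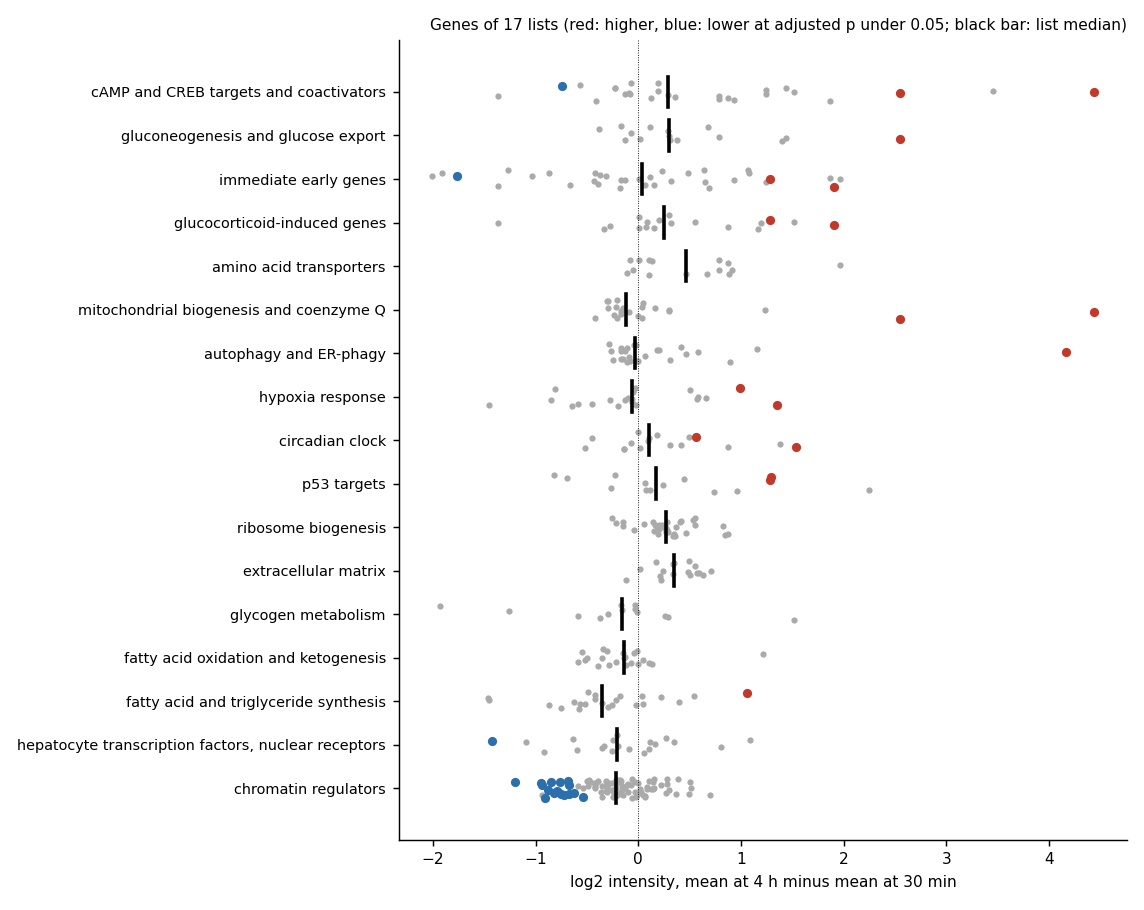
Change of each measured gene (log2 intensity, 4 h minus 30 min) in 17 lists, with red for higher and blue for lower genes past an adjusted p of 0.05, grey for the rest and a black bar at the list median. Called genes are few in each metabolic list, and the blue points gather in the chromatin list, which was made after the values were seen.

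After Zfp36, the largest called fall was that of C3ar1, the receptor for complement fragment C3a, which had 6.65, 7.37 and 7.04 at 4 h and 8.61, 8.67 and 9.02 at 30 min (−1.75 ± 0.29, adjusted p = 0.01). Dcun1d2, which helps attach NEDD8 to cullins, had 6.60, 6.22 and 6.42 at 4 h and 8.22, 8.21 and 7.60 at 30 min (−1.60 ± 0.24, adjusted p = 0.00606). Onecut2, a transcription factor of hepatocytes and bile duct cells, had 8.69, 8.20 and 9.19 at 4 h and 10.26, 10.29 and 9.78 at 30 min (−1.42 ± 0.28, adjusted p = 0.0237). It was the 1 called gene of 20 hepatocyte transcription factors and nuclear receptors, whose median was −0.20, and its relative Onecut1 had a change of 1.09 that did not pass. Fabp2, a fatty acid binding protein best known from intestine, lay below the floor on all 4 h arrays, so its fall was at least 0.78 on the log2 scale. Rtp3, a receptor transporter family gene, fell by 1.51, Prkd3, protein kinase D3, by 1.27, Znf750, known as a factor of epidermal differentiation, by 1.13, and Tbc1d24, a vesicle traffic protein, by 1.11. Atxn2, an RNA-binding protein of stress granules, had 11.17, 11.19 and 11.61 at 4 h and 12.62, 12.31 and 12.70 at 30 min (−1.22 ± 0.17, adjusted p = 0.00444), and it passed without any 1 array, as did Dcun1d2. C3ar1 was lost without 4 h replicate 1 (0.057), Znf750 and Tbc1d24 without 4 h replicate 2 (0.0547 and 0.0604), and Rtp3 without 4 h replicate 1 or 30 min replicate 2 or 3 (0.0861 to 0.105) or the 3 arrays together (0.0522). Onecut2, Fabp2 and Prkd3 were lost without replicate 1 or 2 of either age (0.0822 to 0.171).

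Bcl9l, a coactivator of beta-catenin in Wnt signalling, had 6.71, 6.56 and 7.12 at 4 h and 8.09, 8.28 and 7.82 at 30 min (−1.27 ± 0.16, adjusted p = 0.00187). Nlk, a kinase that restrains the TCF partners of beta-catenin, fell by 1.26, and Nlkl1, a near copy of it on the array, by 1.46, and since their probes may read each other they count as 1 observation. Nlk missed the threshold without 4 h replicate 1 (adjusted p = 0.0534). Bcl9 (−0.64) and Dvl2 (−0.44), which were noticed after their values were seen, were lower too. No Wnt list was made, so no share of the pathway can be given.

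Chromatin regulators were noticed among the lower genes, so a list of 105 histone-modifying, remodelling and reader genes was drawn up after the values were seen, and it carries no test of its own. Of its 95 measured genes 17 fell (17.9%, against 0.465% of all genes) and 0 rose in limma, while 37 were lower and 6 higher at an unadjusted p under 0.05. At that threshold 6.21% of all genes were lower and 5.13% higher. The list median was −0.22, with 71 changes below 0. Kmt2a, the histone H3 lysine methyltransferase MLL1, had 7.66, 7.41 and 7.23 at 4 h and 8.37, 8.56 and 8.95 at 30 min (−1.20 ± 0.16, adjusted p = 0.00294). Arid1a, the largest subunit of a SWI/SNF remodeller, had 10.67, 10.55 and 10.25 at 4 h and 11.20, 11.29 and 11.84 at 30 min (−0.95 ± 0.17, adjusted p = 0.0165). Dido1, a reader of methylated histone H3, had 7.82, 7.99 and 7.84 at 4 h and 8.76, 8.95 and 8.59 at 30 min (−0.88 ± 0.10, adjusted p = 0.00184). In each of the 3 genes every 4 h array lay below every 30 min array, replicate 3 included, and of the 3 only Arid1a missed the threshold when an array was left out (4 h replicate 2, adjusted p = 0.0548; the 3 arrays together, 0.0788).

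The other members that fell were Mllt10, Zmynd8, Bcorl1, Pwwp2a, Chd9, Baz1b, Kdm2b, Bicra, Asxl2, Ash1l, Kat14, Ino80d, Ehmt1 and Kdm2a, by 0.54 to 0.93. Bicra lay below the floor on every 4 h array, so its fall was at least 0.50. Kat5, the acetyltransferase TIP60, went the other way with a change of 0.49 that did not pass (adjusted p = 0.0526). The median of the 17 genes, each set to its 30 min mean, was −0.78, −0.81 and −0.86 on the 4 h arrays, which restates how they were chosen, while on the 12 h arrays it was −0.27, −0.28 and −0.41. Over all 95 genes, each set to its mean on the 18 arrays, the median was −0.05, −0.08 and −0.17 on the 4 h arrays and 0.07, 0.10 and 0.22 on the 30 min arrays. On the 7 day arrays it was −0.13, −0.22 and 0.01, so the lowest value of the whole list was on a 7 day array. Leaving out single arrays left 5 to 12 members lower, and leaving out replicate 3 of both ages with E21 replicate 1 left 8 lower and 3 higher. With the 6 arrays fitted alone in limma 0 members passed, and 33 were lower and 4 higher at an unadjusted p under 0.05. Of all 18926 genes, 1154 were lower and 977 higher at that threshold in that fit. The mean level of all 95 was 8.58 to 8.71 on the 4 h arrays and no lower than 8.83 on the 30 min arrays.

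**Figure D5:**
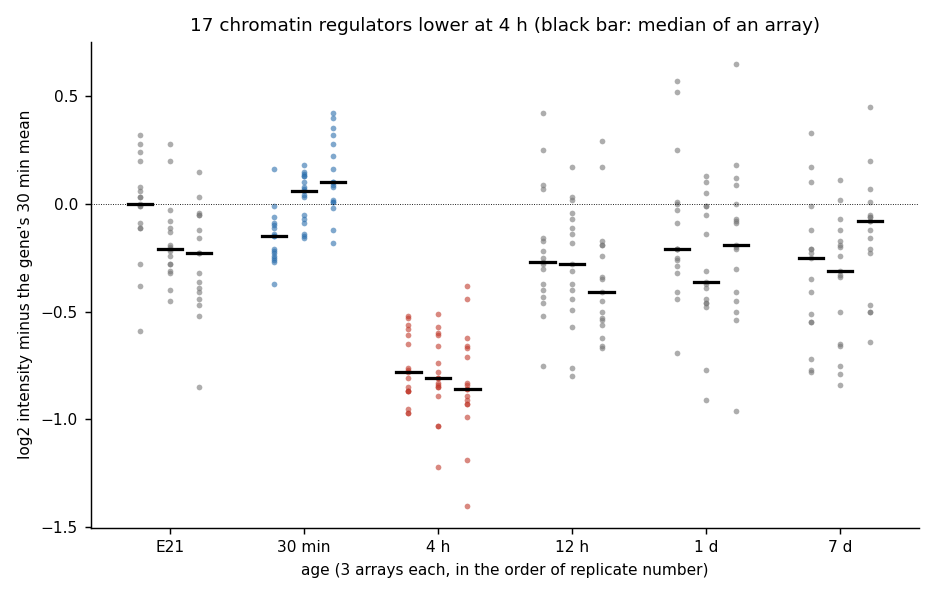
Log2 intensity of the 17 chromatin regulators that were lower at 4 h, each minus its own 30 min mean, on the 18 arrays by age, with a black bar at the median of an array. The 3 red arrays of 4 h have medians of −0.78 to −0.86, below those of every other age, as the choice of genes lower at 4 h favours.

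Levels at the other ages show how long the changes lasted. Of the 98 higher genes 94 (95.9%) had their highest mean at 4 h among the 6 ages, against 17.75% of all genes. In 72 (73.5%) all 3 arrays of 4 h lay above all 15 others, against 1.07% of all genes. Of the 88 lower genes 80 (90.9%) had their lowest mean at 4 h, against 18.69% of all genes. In 56 (63.6%) all 3 arrays lay below all 15 others, against 1.53% of all genes. Choosing the genes on their 4 h values favours such counts, so they are a description. The 12 h and E21 levels are not part of the difference between 4 h and 30 min, although their spread entered the pooled error behind the calls. Between them the median difference (12 h minus E21) was 0.13 for the higher and −0.16 for the lower genes. At 12 h against E21, 12 of the 98 higher genes (12.2%, which is 1.64% of the 731 genes higher there) were higher and 7 (7.14%) were lower, where 3.86% and 2.08% of all genes were. Nr1d2, Cirbp, a cold-induced RNA-binding protein, and Ppp2ca, the catalytic subunit of a phosphatase, were among the 12. Of the 88 lower genes 6 were higher and 7 lower at 12 h against E21, with Zfp36 and Atxn2 among those lower. At 7 days against E21, 22 of the 98 (22.4%, or 0.908% of the 2422 genes higher there) were higher, Epas1 and Clock among them, against 12.8% of all genes. On 7 day replicate 3 the exocrine pancreas markers, each set to its mean on the 18 arrays, had a median of 6.10. It was −0.26 and −0.22 on 7 day replicates 1 and 2. That array enters the 7 day values and the pooled spread, and its effect on them was not tested.

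In whole liver, fewer cells of a type and less RNA per cell cannot be told apart. All 12 lists of cell type markers had 0 called members in limma, and 5 of their genes were higher and 1 lower at an unadjusted p under 0.05. Of all genes 5.13% were higher and 6.21% lower at that threshold. The mean level of 19 erythroid markers was 10.68 to 11.64 at 4 h and 11.45 to 11.61 at 30 min, with the low value on 4 h replicate 3 and a median change of −0.24. The mean of 10 platelet markers was 9.72 to 10.15 at 4 h and 9.67 to 11.35 at 30 min, with the high value on 30 min replicate 3, and all 10 changes lay below 0. The mean of 15 endothelial markers was 10.23 to 10.40 at 4 h and 10.14 to 10.29 at 30 min. Beside these, the called genes Clec14a, Mcam and Bcl6b, which are known from endothelium and were noticed after their values were seen, rose by 0.90, 0.80 and 0.95. B cell markers (8 genes) had a mean of 6.03 to 6.56 at 4 h and 5.74 to 6.04 at 30 min, macrophage markers (16 genes) 9.70 to 9.95 at 4 h and 9.45 to 9.84 at 30 min, and hepatocyte markers (9 genes) 17.33 to 17.47 at 4 h and 17.30 to 17.51 at 30 min. The hepatocyte list includes Alb and Afp, which lay at the top of the scale, so a steady mean there cannot be read as no change. The part of such shifts in the called genes was not tested.

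A few of the calls are weak as levels. In 18 called genes the age with the lower mean had no array above the floor, and 7 of these, Dio2 and Akap12 among them, had no value clear of the floor at either age, so no fold is given for them. Srxn1, an antioxidant enzyme and the 1 called gene of 21 NRF2 targets, was at least 0.09 higher by that bound. Ptp4a1 and Ptp4a1l1, near copies, rose together by 0.95 and 1.08, and their probes may not separate them. Zfp622 and Mob4 passed although their arrays overlapped between the ages, with 4 h replicate 3 below 30 min replicate 3 in both.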

How the data were processed

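Liver RNA in 18 rat samples, 3 at each of 6 ages, was measured on arrays, and the authors deposited 1 table of intensity values for 24753 probe sets. Per the submitters' processing notes RMA and Affymetrix Expression Console 1.0 were used, in a role and order not stated. The deposited intensity values were linear, ran from 4.24 to 999969, above the usual scanner range, for a reason not given in the sources used here, and came with no detection call, so precision rests on the 3 arrays per age. Groups came from the sample titles.

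From these, log2 values were taken with no further scaling. Of the probe sets, 19837 named 1 gene symbol, 420 several and 4496 none. For 800 genes with more than 1 probe set the one with the highest mean over 18 arrays was kept, giving 18926 genes. All 18 arrays were fitted with limma 3.58.1 in R 4.3.3 (a mean per age, moderated two-sided test, Benjamini-Hochberg adjustment over all genes, threshold 0.05). Tested on simulated data for this comparison with 18926 genes, the fit recovered 80% of log2 changes of 1 and 97.5% of changes of 2, with 11 false calls. The simulated noise was normal and independent between genes and arrays. Shifts shared by many genes on 1 array were not simulated, so these rates do not cover them.

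Genes named were the 14 largest called changes in each direction without overlap, the 4 lowest p-values in each list, and 14 reference genes, and the text describes a part of the 247 genes so chosen; others are said to be chosen later or belong to the chromatin list. Other genes mentioned (Ptp4a1, Zfp622, Mob4, Dio2, Akap12, Lrrc8a, Ppp2ca, Cirbp, Sik1, the Nr4a genes, Gadd45b) were also chosen after their values were seen. The members and lists were chosen with earlier results of these data known. Lists held 1105 entries, of which 1034 were matched, 5 by synonym. A fall or rise of a gene below the floor on the arrays of its dimmer age is given as a bound, computed against the floor. Alternatives tried were the 6 arrays alone, a trended robust prior, array weights, quantile normalization, a filter on dim genes, the dimmest probe set of each gene, the replicate number as a block, and arrays left out.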

Additional observations from a re-analysis of the deposited data

How the results depend on the processing

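Counts are higher and lower genes at 4 h, with 98 and 88 in the fit reported. Fitting only the 6 arrays in limma left 1 and 0 (Bcar3 the one), with 977 and 1154 at an unadjusted p under 0.05. Array weights gave 568 and 613, and dropping at once replicate 3 of both ages and E21 replicate 1 gave 281 and 164, which shared 126 of the 186 calls. Leaving out 1 array at a time gave 18 to 258 higher and 28 to 180 lower genes. The lowest counts came without 30 min replicate 2 and the highest without 4 h replicate 3 (438 calls in all). With the replicate number as a block in the 6 arrays, 0 and 0 genes passed in limma, with 800 and 1053 at an unadjusted p under 0.05. Same-numbered arrays had deviations that correlated at 0.168, 0.0256 and −0.158, so the numbers were not shown to pair the dams. The trended robust prior gave 95 and 79, quantile normalization 126 and 92 (it moved the median of all genes by −0.0052), a mean log2 of at least 7 gave 94 and 90, and the dimmest probe set of each gene 94 and 89. No called gene changed direction under any of these. The cause of the changes in count was not tested. With 3 arrays per age and no detection call, changes near the floor of 6.13 have little weight, and a gene that missed the threshold is not shown to be unchanged.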
